A study of Mus musculus with 192 samples.

Results

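Fgf21 and 9 genes of the integrated stress response (Gdf15, Atf4, Atf5, Ddit3, Trib3, Asns, Chac1, Psat1 and Phgdh) were followed through 9 tissues of WT and Nrf2-KO mice that were flown or kept on the ground. The 10 genes were taken by their symbols from a table of 54752 genes, in which 11 records carry these symbols because Ddit3 is listed under 2 identifiers. The genes were chosen by the level of Fgf21 in the liver of WT mice, flight against ground, as the measured value. Values of that contrast in liver are therefore given as a description, without a test.

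RNA was sequenced from liver (Liv), epididymal white fat (eWAT), interscapular brown fat (iBAT), cerebrum (Cbr), thymus (Thy), spleen (Spl), kidney (Kid) and the temporal (TpB) and mandibular (MdB) bones. All mice were male C57BL/6 animals (C57BL/6J in the study's methods) aged 12 weeks at the start, and the 4 groups were GC_WT and GC_KO on the ground and FL_WT and FL_KO aboard the space station. The Nrf2-KO mice lack Nrf2, encoded by Nfe2l2, in every cell from the germ line on, and they had been selected for the absence of an intrahepatic shunt. With flight mouse 04 left out because of an intestinal hemorrhage, 184 of 192 samples remained, with 5 FL_KO and 6 other mice per group, or 3 per group in Kid and 2 FL_KO and 3 of the other groups in MdB. The ground control was run at another site and season and was fed CRF-1, whereas the flown mice had been moved to flight food. The flown mice were dissected on Earth after recovery from the sea. Behavioural tests preceded dissection in both flown and ground mice. Flight itself, food, season, site and the return to Earth cannot be told apart in these comparisons. In bulk tissue, fewer cells of a type and less RNA per cell cannot be told apart either.

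The integrated stress response is entered when kinases that sense amino acid shortage, unfolded protein, heme shortage or viral RNA phosphorylate the translation factor eIF2alpha. General translation then falls while translation of the ATF4 mRNA increases, so that the Atf4 transcript is not a measure of ATF4 protein. ATF4 and its partners switch on genes of amino acid synthesis and transport, the regulators Atf5, Ddit3 (CHOP) and Trib3, and the hormones Fgf21 and Gdf15. In liver, Fgf21 is also a classical target of PPARalpha, the nuclear receptor of fasting and fatty acid oxidation. FGF21 acts through FGF receptors with the co-receptor beta-Klotho (Klb), and GDF15 acts through GFRAL and Ret in the hindbrain. The genes lie on chromosomes of the GRCm38 build, with Fgf21 (ENSMUSG00000030827.5) at chr7:45613886-45615490, Gdf15 at chr8:70629393-70632456, Atf4 at chr15:80255184-80257541, Atf5 at chr7:44812256-44816658, Asns at chr6:7675169-7693254 and Phgdh at chr3:98313170-98339990.

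ATF4 binds as a dimer with C/EBP proteins to the composite element TGATGNAA. The letters were searched on both strands of the RefSeq promoters (GRCm38.p6, 250 bases before to 50 after each start), in which all 10 genes were found with 13 promoters. The element was present in 4 of these 13, those of Fgf21, Trib3, Asns and Chac1, and in 1304 of all 32851 promoters (3.97%). The sequence before the start of Fgf21 is shown because the report turns on this gene, and the windows of Asns and Chac1 are shown because both genes were measured in the same tissues. Each is written 5′ to 3′ on the strand of its gene, with the matched letters in capitals.
Fgf21, chr7:45615491-45615740, minus strand: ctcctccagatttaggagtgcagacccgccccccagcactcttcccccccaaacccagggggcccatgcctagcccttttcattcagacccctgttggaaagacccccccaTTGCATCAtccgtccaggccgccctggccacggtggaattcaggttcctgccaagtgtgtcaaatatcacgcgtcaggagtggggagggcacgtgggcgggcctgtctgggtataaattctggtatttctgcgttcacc
Asns, chr6:7693210-7693252, minus strand: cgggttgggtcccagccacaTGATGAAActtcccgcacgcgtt
Chac1, chr2:119351029-119351076, plus strand: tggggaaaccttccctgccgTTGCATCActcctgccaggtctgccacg
The letters lie on the opposite strand in Fgf21, Chac1 and Trib3, where the match is TTACATCA downstream of the start, and on the gene's own strand in Asns. The core of the antioxidant response element bound by Nrf2, TGACNNNGC, was found in 2 of the 13 promoters, those of Asns and Phgdh, and in 4071 of all promoters (12.4%). It overlapped no TGATGNAA match. A match is a run of letters and not a bound site, and in Fgf21 the TGACNNNGC letters were not in this window.

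Libraries held 13.0 to 16.3 M (mega) expected counts in the 8 tissues prepared from poly(A) RNA and 8.01 to 10.6 M in Thy, which was prepared by rRNA depletion. Nfe2l2 was lower in Nrf2-KO than in WT mice without overlap in all 9 tissues, and its remaining transcript was 3.72 to 67.8 TPM (the share of transcripts of a gene after scaling to gene length and to an equal sum per library) in the 88 Nrf2-KO samples against 13.8 to 109 TPM in the 96 WT samples. Every gene of the list of each tissue's own markers was above 1 TPM in every sample. In iBAT, however, 3 flight libraries stood apart by skeletal muscle RNA. The summed level of 8 muscle markers was 7390 TPM in FL_WT mouse 06, 3564 TPM in FL_WT mouse 08 and 9009 TPM in FL_KO mouse 11, and 0.74 to 74.4 TPM in the other iBAT libraries.

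On the ground, the 10 genes had very different tissue patterns in WT mice. Phgdh, the first enzyme of serine synthesis, reached 548 ± 66.5 TPM (mean ± SD, n = 6) in eWAT and 0.18 ± 0.20 TPM in Liv. Psat1, the following enzyme of that pathway, was 132 ± 8.16 TPM in eWAT, 108 ± 4.75 TPM in Cbr and 0.27 ± 0.09 TPM in Liv. Both serine enzymes had their lowest mean in Liv, where they did not pass the filter on low counts. Asns, which makes asparagine, was likewise high in eWAT (131 ± 22.2 TPM) and Cbr (99.2 ± 3.53 TPM) and low in Liv (3.82 ± 4.16 TPM), Kid (3.34 ± 0.82 TPM, n = 3) and Thy (1.80 ± 0.52 TPM). The mean of Liv lay within its SD of the other 2, while Kid and Thy differed by more than their SDs.

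Atf4 was expressed everywhere, from 46.2 ± 1.99 TPM in Thy to 238 ± 12.7 TPM in TpB. Its neighbours Cbr (209 ± 6.98 TPM), MdB (194 ± 23.8 TPM, n = 3) and Spl (175 ± 7.77 TPM) were separated by about the spread of MdB. Atf5 followed another order, with 88.9 ± 14.5 TPM in eWAT, 77.0 ± 30.1 TPM in Liv and 72.2 ± 12.5 TPM in iBAT, which overlap, and 4.59 ± 1.29 TPM in Thy. The pro-apoptotic factor Ddit3 ranged from 11.1 ± 1.79 TPM in Liv to 45.7 ± 6.22 TPM in Cbr. The pseudokinase Trib3 stayed under 4 TPM in all 9 tissues, and Chac1, which degrades glutathione, ranged from 0.11 ± 0.09 TPM in Thy to 12.2 ± 3.54 TPM in MdB.

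The hormones were low in most tissues. Gdf15 was 9.04 ± 2.09 TPM in Kid (n = 3) and 6.50 ± 3.17 TPM in Liv, 2.40 ± 0.77 TPM in TpB, and at 0 in all 6 iBAT samples. Fgf21 was highest in Thy, at 2.25 ± 0.71 TPM, in libraries prepared differently from those of the other tissues. MdB (0.54 ± 0.23 TPM), iBAT (0.53 ± 0.53 TPM), Liv (0.51 ± 0.24 TPM), TpB (0.50 ± 0.42 TPM) and Kid (0.41 ± 0.17 TPM) followed and did not differ beyond their spread. Fgf21 was 0.24 ± 0.19 TPM in eWAT and 0.13 ± 0.15 TPM in Spl, and no read was assigned to it in any of the 6 Cbr samples of GC_WT mice.

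**Figure D1:**
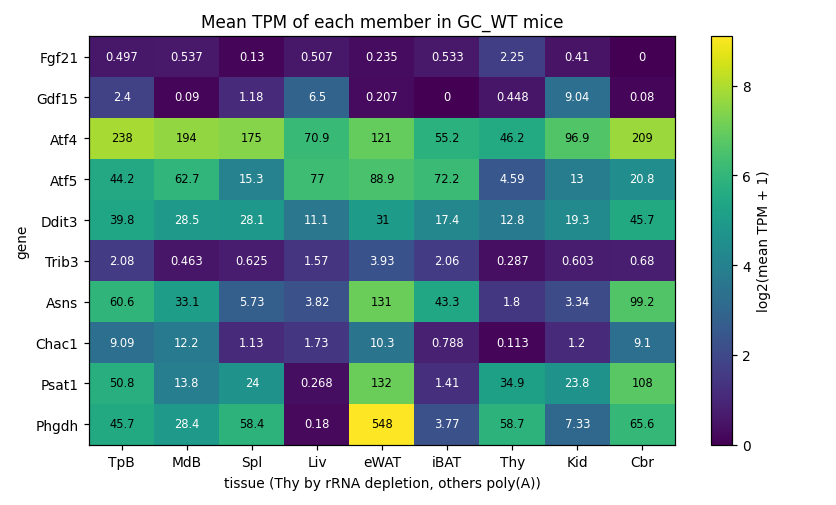
Mean TPM of the 10 genes (rows of the map) in the 9 tissues (columns) of GC_WT mice, n = 6 per tissue and 3 in MdB and Kid, with the colour giving log2(mean TPM + 1). Phgdh, Psat1 and Asns are highest in eWAT and low in Liv, while Atf4 is found in every tissue and Fgf21 does not exceed 2.25 TPM.

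The first question was whether flight was accompanied by a change of Fgf21 in liver. In WT mice, which led to the choice of the genes, Fgf21 was 0.22 TPM at the lowest, 0.45 TPM at the median and 0.90 TPM at the highest in the 6 GC_WT livers (2 to 8 counts). In the 6 FL_WT livers these values were 6.23, 10.8 and 22.1 TPM (56 to 186 counts). The groups did not overlap, and the difference was 4.56 ± 0.46 on the log2 scale (log2 fold change ± SE).

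Nrf2-KO mice are other animals and were tested. The 6 GC_KO livers had 0.34 TPM at the lowest, 1.02 TPM at the median and 1.97 TPM at the highest (3 to 17 counts). The FL_KO livers had 10.4 TPM in mouse 01, 21.5 TPM in mouse 02, 6.33 TPM in mouse 09, 7.32 TPM in mouse 11 and 6.94 TPM in mouse 12 (53 to 184 counts). All 5 flown mice were above all 6 ground mice, with mouse 02 the highest. Fgf21 rose by 3.13 ± 0.42 on the log2 scale, an 8.73-fold higher level, with an adjusted p of 0.000211 in edgeR's quasi-likelihood test with Benjamini-Hochberg adjustment over all genes tested. The change was 2.64 to 3.35 when each mouse was left out in turn, and it kept its call under all 33 settings tried. Same-numbered FL_KO and GC_KO livers deviated together (r of 0.22 to 0.37), though in only 1 of 5 pairs were the mice each other's closest match. The mouse number was therefore also used as a replicate block in the Nrf2-KO mice alone. The change of Fgf21 was then 3.13 with an adjusted p of 0.006 (edgeR).

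Between the genotypes, Fgf21 in GC_KO and GC_WT livers differed by 1.09 ± 0.56, and their ranges overlapped. FL_KO and FL_WT livers differed by -0.34 ± 0.35. Both contrasts use the WT liver values that led to the choice of the genes, so they are given as a description, without a test. The ground values rest on 2 to 17 counts per library, which limits what could be detected between the genotypes. Fgf21 passed the filter on low counts in Liv through the flown mice.

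**Figure D2:**
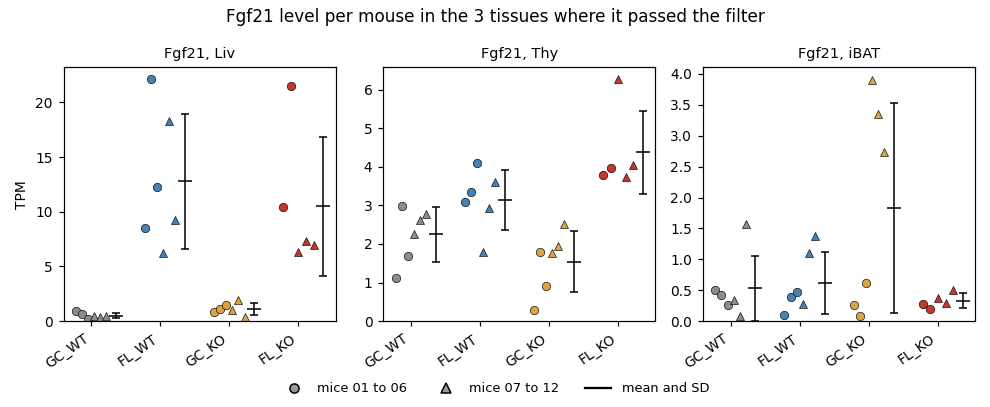
Fgf21 level in TPM (linear axis from 0) per mouse in Liv, Thy and iBAT for the 4 groups, with circles for mice 01 to 06, triangles for mice 07 to 12 and the mean with its SD beside them. In Liv the flown mice of both genotypes lie between 6.23 and 22.1 TPM, above all ground mice, whereas in iBAT the GC_KO mice split between 0.09 and 3.91 TPM.

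Outside the liver, Fgf21 passed the filter on low counts in Thy and iBAT. In Thy it was 0.29, 1.78 and 2.51 TPM at the lowest, median and highest of 6 GC_KO mice. The FL_KO mice had 3.80, 3.98, 6.28, 3.75 and 4.06 TPM (mice 01, 02, 09, 11 and 12). The groups did not overlap, and Fgf21 rose by 1.297 ± 0.290 (log2, adjusted p = 0.00107, edgeR). In WT mice the thymus ranges were 1.13 to 2.98 TPM on the ground and 1.80 to 4.10 TPM in flight, with a difference of 0.24 ± 0.27 (adjusted p = 0.557, edgeR). The difference between both flight responses was 1.06 ± 0.40 (adjusted p = 0.467, edgeR). The summed level of 6 thymocyte markers was 1427 to 2311 TPM in GC_KO and 1371 to 1567 TPM in FL_KO mice, and that of 6 macrophage markers was 99.0 to 162 TPM and 191 to 265 TPM. Their part in the result was not tested.

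In iBAT the direction was the opposite. GC_KO mice 09, 11 and 12 had 3.91, 3.36 and 2.73 TPM, and GC_KO mice 01, 02 and 04 had 0.26, 0.09 and 0.61 TPM. All 5 FL_KO mice were between 0.19 and 0.50 TPM, within the range of the lower ground mice, so the groups overlapped. Fgf21 fell by 2.87 on the log2 scale (SE 0.77, adjusted p = 0.00653, edgeR), with the high GC_KO values in mice numbered 07 to 12. GC_KO mice 09, 11 and 12 held 44, 37 and 30 counts, and the FL_KO mice held 2 to 5. Fgf21 thus passed the filter on low counts in iBAT in part through those high GC_KO mice. The p takes no account of that. Without the 3 libraries rich in muscle RNA the difference was -2.81 (adjusted p = 0.0196, edgeR). In WT mice it was 0.09 to 1.57 TPM on the ground and 0.10 to 1.37 TPM in flight (-0.11 ± 0.73, adjusted p = 0.936, edgeR). The test of the difference between the genotypes gave -2.76 ± 1.07 (adjusted p = 0.458, edgeR).

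In the other 6 tissues Fgf21 stayed too low for a test. It did not exceed 3.56 TPM in TpB, 0.94 TPM in MdB, 1.69 TPM in Spl, 3.34 TPM in eWAT, 1.02 TPM in Kid and 0.17 TPM in Cbr in any mouse. Among 17836 genes, those whose mean log2(TPM + 1) over the 36 combinations of tissue and group most resembled that of Fgf21 were B630019A10Rik (Pearson r = 0.73), Cyp2a22 (0.71), Serpina7 (0.69), Apoa4 (0.67) and Gm2788 (0.63). These points share tissues and libraries and include the WT liver means that led to the choice of the genes, and r is a description. Apoa4, a lipoprotein of lipid absorption, had means of 63.6 TPM in GC_WT, 1068 TPM in FL_WT, 39.4 TPM in GC_KO and 636 TPM in FL_KO livers. Serpina7, the thyroxine-binding globulin, had 9.67, 27.7, 6.48 and 20.1 TPM in the same order. Cyp2a22 had 1.455, 6.30, 1.91 and 8.31 TPM and Gm2788 had 26.6, 36.5, 32.7 and 49.1 TPM. B630019A10Rik, the closest gene, had 19.8, 20.8, 16.3 and 19.5 TPM, so a high r did not require a change with flight. The closest of the other 9 genes was Gdf15, with r = 0.44 and rank 372.

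Gdf15, the other hormone, was higher in most flown livers. In WT livers it was 3.16, 5.94 and 12.1 TPM at the lowest, median and highest on the ground and 9.59, 10.8 and 18.8 TPM in flight, given as a description, with overlapping groups. In the 6 GC_KO livers it was 6.44, 9.55 and 11.9 TPM, and in the FL_KO livers 36.1, 23.0, 14.4, 17.6 and 10.5 TPM (mice 01, 02, 09, 11 and 12). Only FL_KO mouse 12 lay within the ground range. The difference was 0.99 ± 0.31 and missed the threshold (adjusted p = 0.081, edgeR). With the mouse number as a replicate block in Nrf2-KO mice alone it was 0.89 with an adjusted p of 0.0395, and without FL_KO mouse 12 it was 1.17 with an adjusted p of 0.0329 (edgeR). Gdf15 in liver was therefore on either side of the threshold, with the same direction.

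The transcription factors of the response moved less. Atf4 was 60.8, 71.0 and 79.6 TPM in GC_WT livers and 82.2, 92.3 and 98.1 TPM in FL_WT livers, without overlap in TPM, as a description. On edgeR's scale these groups overlapped, with up to 89.8 on the ground and 87.2 or more in flight. In Nrf2-KO livers the ranges were 76.1 to 121 TPM on the ground and 78.2 to 105 TPM in flight, a difference of -0.21 ± 0.10 (adjusted p = 0.349, edgeR). On the ground it was higher in GC_KO than in GC_WT livers by 0.41 ± 0.10 (adjusted p = 0.0259, edgeR), with ranges that overlapped between 76.1 and 79.6 TPM. That call ended, with an adjusted p of up to 0.074, when any of GC_WT mice 03, 05 and 08 or GC_KO mice 09, 11 and 12 was left out. It also ended with these 2 groups alone in the fit (adjusted p = 0.0542).

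Atf5, which is induced downstream of ATF4 and serves the mitochondrial stress response, was 84.8, 113 and 147 TPM in GC_KO livers. In FL_KO livers it was 95.0 and 116 TPM in mice 01 and 02 and 227, 247 and 256 TPM in mice 09, 11 and 12. GC_KO mice 01, 02 and 04 had 84.8, 86.5 and 94.9 TPM and GC_KO mice 09, 11 and 12 had 131, 147 and 145 TPM. The groups overlapped as a whole. Among mice 09, 11 and 12 the flown mice were above the ground mice. Among the lower numbers FL_KO mouse 01, at 94.99 TPM, was next to GC_KO mouse 04, at 94.91 TPM. On edgeR's scale FL_KO mouse 01 was below GC_KO mouse 04 (107 and 111). The difference was 0.54 ± 0.26 (adjusted p = 0.32, edgeR), and with the mouse number as a replicate block it was 0.44 with an adjusted p of 0.0271. The block in Nrf2-KO mice alone gave 0.44 with an adjusted p of 0.0645. WT livers had 51.4 to 136 TPM on the ground and 59.3 to 195 TPM in flight.

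Ddit3 was 4.61, 8.10 and 12.6 TPM in GC_KO livers and 25.8, 30.9, 5.78, 12.9 and 9.51 TPM in FL_KO livers (mice 01, 02, 09, 11 and 12). FL_KO mice 01 and 02 were far above the ground range and the other 3 were in or next to it (1.02 ± 0.39, adjusted p = 0.185, edgeR). Trib3, a target of ATF4 and CHOP, was at 0.29 to 1.54 TPM in GC_KO and 0.94 to 2.73 TPM in FL_KO livers (0.80 ± 0.41, adjusted p = 0.373, edgeR). With the ranges of mouse numbers as a block, an alternative added after the data had been seen, Trib3 was 0.90 higher in FL_KO livers with an adjusted p of 0.0454 and 0.99 lower in GC_KO than in GC_WT livers with an adjusted p of 0.0217.

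Chac1 showed the number ranges most clearly. In livers of mice 01 to 06 of all 4 groups it was 1.73 to 5.97 TPM, and in those of mice 07 to 12 it was 0.42 to 1.23 TPM except for FL_WT mouse 10 at 3 TPM. A number shared by a flown and a ground mouse does not mean the same animal, and what the number ranges stand for was not tested. The flight difference of Chac1 in Nrf2-KO livers was 0.54 ± 0.66 (adjusted p = 0.778, edgeR).

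The largest change between the genotypes was that of Asns in liver. GC_WT livers had 0.86 TPM at the lowest, 2.62 TPM at the median and 12.0 TPM at the highest (17 to 220 counts), the last in mouse 08, with 3.67 TPM as the next value. GC_KO livers had 0 to 0.42 TPM (0 to 8 counts). FL_KO livers held 0 to 9 counts, so Asns passed the filter on low counts in Liv only through WT mice. The p values take no account of that. The groups did not overlap, and GC_KO livers differed from GC_WT livers by -4.37 on the log2 scale (SE 0.64, adjusted p = 0.000113, edgeR), with -4.81 to -3.68 when each mouse was left out in turn. In flight, FL_WT livers had 0.87, 1.53 and 3.03 TPM and FL_KO livers 0.47, 0, 0.27, 0.37 and 0.33 TPM (mice 01, 02, 09, 11 and 12), again without overlap. This difference was -2.60 ± 0.66 (adjusted p = 0.0256, edgeR). The call in flight ended, with an adjusted p of up to 0.0684, when any of FL_KO mice 02, 09, 11 and 12 or FL_WT mice 05 and 10 was left out. The summed level of 12 exocrine pancreas markers in liver was 34.2 to 49.9 TPM in GC_KO against 9.39 to 27.0 TPM in GC_WT and 17.0 to 30.4 TPM in FL_KO against 8.63 to 14.4 TPM in FL_WT. Of these markers Cela1 made up nearly all of the sum (mean 23.6 TPM, followed by Cela2a at 0.19 TPM), and 4 of the 12 were at 0 in every liver. Flight differences of Asns were described in WT livers (-1.19 ± 0.49) and were 0.58 ± 0.85 in Nrf2-KO livers (adjusted p = 0.825, edgeR).

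**Figure D3:**
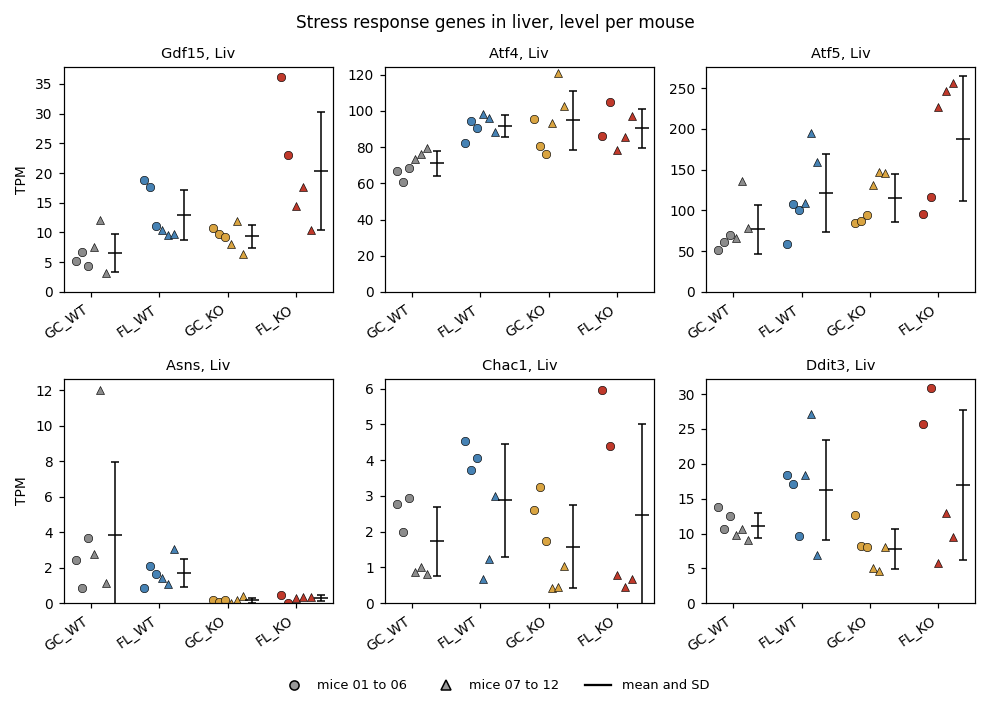
Level in TPM (linear axes from 0) of Gdf15, Atf4, Atf5, Asns, Chac1 and Ddit3 per mouse in Liv for the 4 groups, with circles for mice 01 to 06, triangles for mice 07 to 12 and the mean with its SD. Asns is at 0 to 0.47 TPM in all Nrf2-KO livers and at 0.86 TPM or more in all WT livers, and Chac1 separates the circles from the triangles.

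The genes around the members in liver were read from lists. Of 15 genes of the PPARalpha programme, 8 rose in FL_KO against GC_KO livers and none fell, where 3.34% of all genes were called in either direction, with a median log2 fold change of 0.62 against 0.0097 over all genes tested. They included the acyl-CoA thioesterase Acot1 (1.36 ± 0.24, adjusted p = 0.0019) and the acyl-CoA dehydrogenase Acadm (0.71 ± 0.13, adjusted p = 0.00198), both by edgeR. In WT livers both genes were 1.20 ± 0.23 and 0.60 ± 0.12 higher in flight, as a description. This list and the others were chosen with results of these libraries known and are no independent evidence of a direction.

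Lists closer to the stress response had fewer calls in FL_KO against GC_KO livers. Among 16 ER chaperones and degradation genes, targets of ATF6 and XBP1, 0 passed edgeR's test after adjustment and 9 had an unadjusted p under 0.05, with a median of 0.56. Of all genes tested in Liv, 2072 of 13433 were under that unadjusted p in this contrast. Of 7 tested amino acid transporters 1 rose, Slc3a2 (0.27 ± 0.07, adjusted p = 0.0334, edgeR). Of 6 tested genes on a list of ATF4 partners and stress regulators 1 rose, the lipoprotein receptor Vldlr (1.13 ± 0.29, adjusted p = 0.0313, edgeR). The 13 cytosolic tRNA synthetases (median 0.02), 9 other enzymes of amino acid and one-carbon metabolism (median -0.14), 7 eIF2alpha kinases and phosphatase subunits (median -0.06) and 8 mitochondrial chaperones and proteases (median -0.02) had 0 calls in edgeR. At an unadjusted p under 0.05 there were 2, 2, 1 and 1 in these lists. None of the 5 tested receptor genes of FGF21 and GDF15 was called by edgeR either, with 1 at an unadjusted p under 0.05, and Klb differed by 0.14 ± 0.14 (adjusted p = 0.736).

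Hepatocyte markers, 5 genes led by Alb and Apoa1, summed to 61653 to 76143 TPM in GC_KO and 67363 to 83761 TPM in FL_KO livers. The macrophage sum was 77.3 to 127 TPM in GC_KO and 59.5 to 102 TPM in FL_KO livers. Both ranges overlapped between flight and ground, and their part in the changes of liver was not tested.

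Across tissues, the calls of the 10 genes were then counted in each contrast by edgeR at an adjusted p under 0.05. In FL_WT against GC_WT mice outside the liver, 7 of 69 pairs of gene and tissue were called, 5 higher and 2 lower, with 10 at an unadjusted p under 0.05. They lay in eWAT (3 of 9), iBAT (3 of 9) and Thy (1 of 8). Of all genes tested, 13.4% were called in eWAT, 19.2% in iBAT and 22.8% in Thy, and 0% in TpB, 0% in MdB, 2.26% in Spl, 0.119% in Kid and 0.0244% in Cbr. Under the unadjusted p were 4122 of 15317 genes in eWAT, 4486 of 13574 in iBAT and 5816 of 16307 in Thy. In Spl, Kid, MdB, TpB and Cbr these were 2741 of 16170, 1003 of 15114, 1420 of 16361, 675 of 18184 and 548 of 16382. In Liv, whose values chose the genes, 1 of 8 members was past the threshold beside 3.45% of all genes, and nothing is read from that count. The members were thus called in the tissues in which many genes were.

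In FL_KO against GC_KO mice, 8 of 77 pairs were called, 3 higher and 5 lower, with 15 at an unadjusted p under 0.05. These were 1 of 8 in Liv, where 3.34% of all genes were called, 4 of 9 in iBAT (33.5%) and 3 of 8 in Thy (38.2%). The background was 7.71% in eWAT, 0.668% in Spl, 0.159% in Kid, 0.0061% in Cbr, 0% in TpB and 0% in MdB, and no member was called there by edgeR. In Thy 3 of 8 members stood beside a background as large. Outside Liv, differences between both genotypes' responses were called by edgeR for 0 of 69 pairs, with 7 at an unadjusted p under 0.05, and for 0% of all genes. DESeq2 called 0 as well, as did limma on TPM in the 51 pairs it tested. In edgeR's interaction, 1127 genes were under the unadjusted p in iBAT, 1342 in Thy, 1291 in eWAT and 643 in Spl. In Kid, MdB, Cbr and TpB these were 511, 827, 383 and 321.

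In eWAT of WT mice Gdf15 and Atf5 rose and Asns fell. Gdf15 was 0.08, 0.18 and 0.38 TPM at the lowest, median and highest in GC_WT (1 to 5 counts) and 0.26, 0.98 and 1.73 TPM in FL_WT (3 to 20 counts). Only the lowest FL_WT mouse lay in the ground range (2.17 ± 0.47, adjusted p = 0.00375, edgeR). No ground mouse of either genotype exceeded 5 counts, so Gdf15 passed the filter on low counts only through flown mice. The p takes no account of that. Atf5 was 66.8, 90.0 and 104 TPM on the ground and 107, 137 and 150.5 TPM in flight, without overlap in TPM (0.49 ± 0.11, adjusted p = 0.00402, edgeR). On edgeR's scale Atf5 overlapped, with up to 105.6 on the ground and 102.5 or more in flight. Asns was 89.7, 137 and 154 TPM in GC_WT and 63.1, 80.6 and 110 TPM in FL_WT, with overlap, and fell by 0.78 on the log2 scale (SE 0.14, adjusted p = 0.000554, edgeR).

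These 3 calls held under every setting in which the gene was tested, 28 for Gdf15 and 32 each for Atf5 and Asns. In Nrf2-KO eWAT the difference was 1.13 ± 0.50 for Gdf15 (adjusted p = 0.171, edgeR), and Asns was 100.3 to 145 TPM on the ground and 82.6 to 111 TPM in flight. Atf5 there was 91.9 to 123 TPM on the ground and 107 to 158 TPM in flight, with overlap. None of these 3 genes was called by edgeR in Nrf2-KO eWAT. The difference between the genotypes was not called for any of them, and for Asns it was 0.52 ± 0.20 (adjusted p = 0.483, edgeR). The summed level of 6 macrophage markers was 579 to 798 TPM in GC_WT and 853 to 1443 TPM in FL_WT eWAT, without overlap, and its part in the 3 changes was not tested.

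In iBAT of WT mice Atf4 and Phgdh rose and Asns fell. Atf4 was 39.1, 55.8 and 70.7 TPM in GC_WT and 77.0, 114 and 129 TPM in FL_WT, without overlap in TPM (0.65 ± 0.20, adjusted p = 0.0237, edgeR). On edgeR's scale Atf4 overlapped, with up to 108.7 on the ground and 90.4 or more in flight. The call ended without GC_WT mouse 08 or 10 (adjusted p up to 0.0593) and, at 0.59, without the 3 libraries rich in muscle RNA (adjusted p = 0.0774). Phgdh was 2.18, 3.64 and 6.25 TPM on the ground and 5.67, 11.6 and 19.7 TPM in flight, with overlap (1.32 ± 0.44, adjusted p = 0.0388, edgeR). This call ended without the 3 muscle-rich libraries (1.31, adjusted p = 0.0793), with muscle RNA as a covariate (0.99, adjusted p = 0.104), without a filter on low counts (adjusted p = 0.0617), and without any of FL_WT mice 05, 06, 08 and 10 or GC_WT mice 05, 06, 07 and 10 (adjusted p up to 0.0978).

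The scale mattered in iBAT, because the median gene was 0.31 higher in WT and 0.43 higher in Nrf2-KO flown mice on the log2(TPM + 1) scale and 0.02 and 0.04 higher in edgeR's scale. Smaller medians of the TPM scale were 0.19 and 0.10 in TpB, 0.18 and 0.16 in Thy for WT and Nrf2-KO mice and 0.15 in Nrf2-KO Liv. In Thy the medians of GC_KO against GC_WT and of FL_KO against FL_WT mice were both -0.11 on that scale. Asns fell in edgeR by 0.35 in WT iBAT (SE 0.10, adjusted p = 0.0175) and by 0.54 in Nrf2-KO iBAT (SE 0.11, adjusted p = 0.000479). On the TPM scale its levels were 36.1 to 55.2 TPM in GC_WT, 36.3 to 53.2 TPM in FL_WT, 29.0 to 37.5 TPM in GC_KO and 25.5 to 36.6 TPM in FL_KO, and limma gave -0.04 (adjusted p = 0.733) and -0.10 (adjusted p = 0.426). Relative to the median gene it was lower on both scales. Without the 3 muscle-rich libraries the edgeR difference in WT mice was -0.31 (adjusted p = 0.0757) and in Nrf2-KO mice -0.52 (adjusted p = 0.00241).

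Atf5 in Nrf2-KO iBAT was 103, 128 and 144 TPM on the ground and 69.1, 65.6, 121, 127 and 144 TPM in flight (mice 01, 02, 09, 11 and 12). Of the flown mice 2 lay below and 3 within the ground range, and Atf5 fell by 0.74 in edgeR (SE 0.18, adjusted p = 0.00298), with -0.34 in limma on TPM (adjusted p = 0.162). Chac1 was 0.85 to 1.95 TPM in GC_KO and 0.26 to 1.16 TPM in FL_KO iBAT and fell by 1.49 (SE 0.53, adjusted p = 0.0328, edgeR). That call ended without any of FL_KO mice 02, 09 and 12 or GC_KO mice 04 and 11 (adjusted p up to 0.0775) and without a filter on low counts (adjusted p = 0.0505). Atf4 was 50.5 to 78.9 TPM in GC_KO and 94.8 to 152 TPM in FL_KO iBAT, without overlap in TPM. On edgeR's scale Atf4 overlapped, with up to 117.6 on the ground and 95.8 or more in flight. It missed the threshold in edgeR (0.41 ± 0.20, adjusted p = 0.13) and passed it in limma on TPM (0.80, adjusted p = 0.000246).

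**Figure D4:**
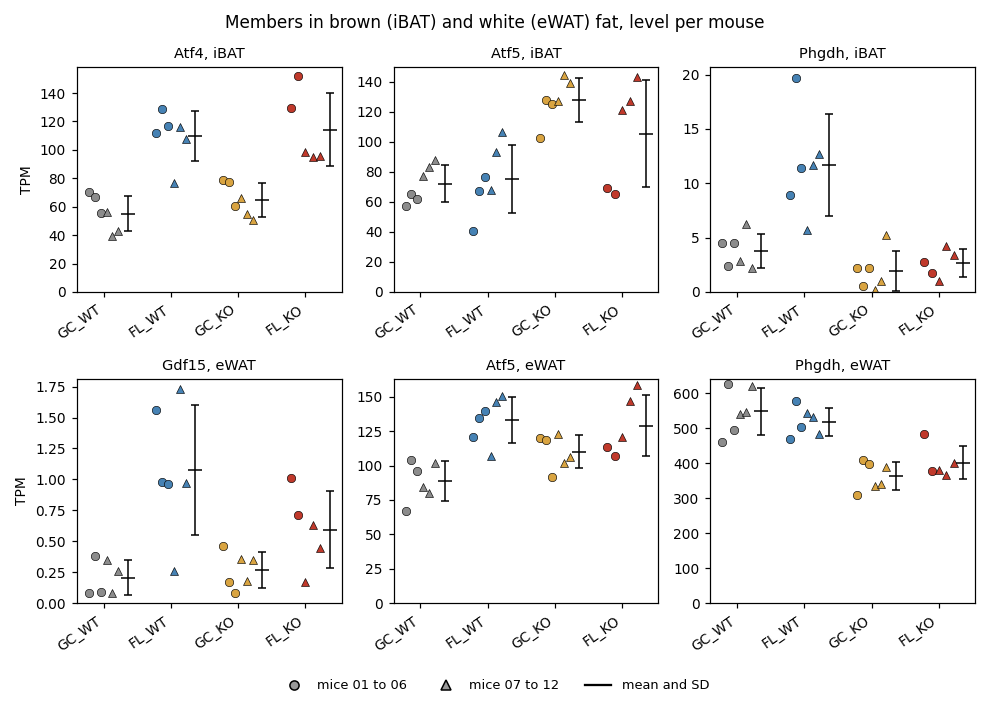
Level in TPM (linear axes from 0) of Atf4, Atf5 and Phgdh in iBAT and of Gdf15, Atf5 and Phgdh in eWAT per mouse for the 4 groups, with circles for mice 01 to 06, triangles for mice 07 to 12 and the mean with its SD. Atf4 in iBAT is at 77.0 TPM or more in all FL_WT mice and at 70.7 TPM or less in all GC_WT mice, and Phgdh in eWAT is at 308 to 409 TPM in GC_KO and 459 to 625 TPM in GC_WT mice. On edgeR's scale the Atf4 ranges of FL_WT and GC_WT iBAT overlap.

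In Thy, Psat1 rose in WT mice, from 31.6, 34.7 and 39.0 TPM at the lowest, median and highest on the ground to 43.2, 45.7 and 63.6 TPM in flight, without overlap in TPM (0.30 ± 0.07, adjusted p = 0.00433, edgeR). On edgeR's scale the WT groups overlapped, with up to 94.5 on the ground and 93.8 or more in flight. In Nrf2-KO mice Psat1 was 24.5 to 35.1 TPM on the ground and 38.4 to 48.1 TPM in flight, also without overlap in TPM, with 0.17 ± 0.08 and an adjusted p of 0.0812 in edgeR. On edgeR's scale these groups overlapped as well (up to 97.2 on the ground and 90.3 or more in flight). Asns rose in Nrf2-KO mice, from 0.84 to 1.90 TPM to 2.05 to 3.29 TPM without overlap in TPM (0.61 ± 0.22, adjusted p = 0.0295, edgeR), at 16 to 56 counts per library. On edgeR's scale Asns overlapped, with up to 4.31 on the ground and 3.97 or more in flight. The call ended without any of FL_KO mice 09, 11 and 12 or GC_KO mice 01, 04 and 12 (adjusted p up to 0.0832), and with the mouse number as a replicate block (adjusted p = 0.0896).

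Atf4 in Nrf2-KO Thy changed direction with the scale. It was 36.5, 45.4 and 48.3 TPM on the ground and 54.2, 48.1, 48.6, 44.2 and 45.3 TPM in flight (mice 01, 02, 09, 11 and 12), and edgeR gave -0.15 ± 0.06 (adjusted p = 0.0447) where limma on log2(TPM + 1) gave 0.11 (adjusted p = 0.29). The edgeR call ended, with an adjusted p of up to 0.193, on leaving out any of FL_KO mice 01, 11 and 12, FL_WT mice 03, 05, 06, 07, 08 and 10, GC_KO mice 01, 02, 11 and 12 or GC_WT mice 06 and 08. It also ended without a filter on low counts (adjusted p = 0.0574) and with these 2 groups alone (adjusted p = 0.0753).

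The surroundings of the response were read in iBAT and Thy as well, in FL_KO against GC_KO mice, beside backgrounds of the sizes given above. In iBAT 8 of 16 ER chaperones and degradation genes rose and 1 fell, among them the chaperone Hsp90b1 (0.52 ± 0.08, adjusted p = 6.72e-05, edgeR) and the ubiquitin ligase Syvn1 (0.68 ± 0.11, adjusted p = 0.000102, edgeR). Of 7 kinases and phosphatase subunits of eIF2alpha 2 rose, Ppp1r15a (0.94 ± 0.28, adjusted p = 0.012, edgeR) and Ppp1r15b (0.82 ± 0.21, adjusted p = 0.00395, edgeR), both of which direct the phosphatase that ends the response. Of 8 mitochondrial chaperones and proteases 4 fell, including Hspa9 (-0.36 ± 0.06, adjusted p = 0.000107, edgeR). Fgfr1, the main FGF21 receptor of fat, rose by 0.46 (SE 0.09, adjusted p = 0.00078, edgeR), while Fgf21 itself was low in those mice.

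In Thy of the same mice 6 ER chaperones and degradation genes rose and 2 fell. Of the list of ATF4 partners and stress regulators 4 of 8 were called, all higher, including Cebpb (0.71 ± 0.17, adjusted p = 0.00159, edgeR), the stress regulator Sesn2 (0.42 ± 0.11, adjusted p = 0.00337, edgeR) and Vldlr (0.74 ± 0.17, adjusted p = 0.00126, edgeR). Among the kinases, Eif2ak2, which senses double-stranded RNA, rose by 0.51 (SE 0.08, adjusted p = 1.37e-05, edgeR), and Eif2ak1, which senses heme shortage, fell by 0.28 (SE 0.06, adjusted p = 0.000788, edgeR). With 38.2% of all genes called in this contrast, nothing is particular to these lists.

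The absence of Nrf2 was examined on the ground, where 6 of 77 pairs were called in GC_KO against GC_WT mice, 4 higher and 2 lower, with 16 at an unadjusted p under 0.05. Beside Atf4 and Asns in Liv these were Atf5 in iBAT and Cbr and Phgdh in MdB and eWAT. The background was 2.64% of all genes in Liv, 2.74% in eWAT, 2.14% in iBAT, 0.836% in Cbr and 0.244% in MdB, and 0.198% in TpB, 1.13% in Spl, 3.81% in Thy and 1.61% in Kid. Under the unadjusted p were 1805 genes in Liv, 2367 in eWAT, 1720 in iBAT, 1519 in Cbr and 829 in MdB. In TpB, Spl, Thy and Kid these were 528, 1748, 3073 and 1645, of the numbers tested given above.

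Phgdh differed in opposite directions in 2 tissues. In eWAT it was 459, 544 and 625 TPM in GC_WT and 308, 364 and 409 TPM in GC_KO, without overlap, with a difference of -0.68 in log2 units (SE 0.11, adjusted p = 0.000928, edgeR). In MdB it was 28.6, 28.8 and 27.7 TPM in GC_WT (mice 03, 07 and 08) and 42.6, 41.3 and 48.8 TPM in GC_KO (mice 01, 02 and 04), with a difference of 0.66 in log2 units (SE 0.08, adjusted p = 0.00261, edgeR, and 0.108 in limma on TPM). Phgdh is the gate of serine synthesis and was at its highest in eWAT. In flight the difference was -0.38 ± 0.12 in eWAT (adjusted p = 0.16, edgeR), and in MdB, with 2 FL_KO mice at 48.9 and 48.2 TPM and FL_WT mice at 30.6, 31.6 and 40.4 TPM, it was 0.60 ± 0.08 (adjusted p = 0.0144, edgeR). The MdB call in flight ended in limma on TPM (adjusted p = 0.555), with the 2 groups alone (adjusted p = 0.0967) and without either FL_KO mouse 01 or 02, or FL_WT mouse 03 or 05 (adjusted p up to 0.188).

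Atf5 was higher in GC_KO mice in 2 tissues. In iBAT it was 57.3, 71.3 and 88.2 TPM in GC_WT and 103, 128 and 144 TPM in GC_KO, without overlap (0.91 ± 0.17, adjusted p = 0.00375, edgeR). In Cbr it was 18.5, 21.2 and 22.8 TPM against 25.3, 26.6 and 32.7 TPM, without overlap (0.43 ± 0.09, adjusted p = 0.0115, edgeR). With these 2 groups alone in the fit the adjusted p was 0.0676. The 5′ end of Atf5 overlaps Nup62 and Il4i1 on the opposite strand, and whether reads were counted by strand is not given in the sources used here.

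In flown mice, 5 of 77 pairs were called in FL_KO against FL_WT, 2 higher and 3 lower, with 23 at an unadjusted p under 0.05. Beside Asns in Liv and Phgdh in MdB these were Atf5 in Cbr and Asns and Phgdh in iBAT. The background was 3.65% of all genes in Liv, 0.208% in MdB, 0.531% in Cbr and 1.5% in iBAT, and 0.203% in TpB, 1.16% in Spl, 1.06% in eWAT, 2.64% in Thy and 1.83% in Kid. Under the unadjusted p were 2323 genes in Liv, 883 in MdB, 845 in Cbr and 1582 in iBAT. In TpB, Spl, eWAT, Thy and Kid these were 418, 1774, 1645, 3233 and 1992, of the numbers tested given above.

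Phgdh in iBAT was 5.67 to 19.7 TPM in FL_WT and 2.72, 1.74, 1.05, 4.23 and 3.44 TPM in FL_KO mice (01, 02, 09, 11 and 12), without overlap, with a difference of -2.20 in log2 units (SE 0.49, adjusted p = 0.0189, edgeR). Without FL_KO mouse 02 the adjusted p was 0.0577, and without the 3 muscle-rich libraries the difference was -2.39 with an adjusted p of 0.0681. Asns in iBAT was lower in FL_KO, with -0.47 (SE 0.11, adjusted p = 0.0196, edgeR), and this call ended without the 3 muscle-rich libraries (adjusted p = 0.0886), in limma on TPM (adjusted p = 0.0735), with the 2 groups alone (adjusted p = 0.149) and without any of FL_KO mice 01, 11 and 12 or FL_WT mice 05 and 07 (adjusted p up to 0.067). Atf5 in Cbr, at 21.0 to 26.1 TPM in FL_WT and 27.4 to 32.2 TPM in FL_KO, differed by 0.40 (SE 0.09, adjusted p = 0.0421, edgeR). Leaving out any of FL_KO mice 01, 09 and 11, FL_WT mice 03, 05, 06 and 10, GC_KO mouse 01 or GC_WT mice 05, 07, 08 and 10 ended that call (adjusted p up to 0.152), as did including mouse 04 (0.33, adjusted p = 0.247).

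Some pairs in tissues with 3 mice per group were apart in every mouse and missed the threshold. Groups that small can be apart by chance, and the share of all genes apart in every mouse was not counted. These pairs are given as a description. In MdB, Trib3 was 0.55, 0.36 and 0.48 TPM in GC_WT (mice 03, 07 and 08) and 1.20, 1.49 and 1.62 TPM in GC_KO (mice 01, 02 and 04), with an adjusted p of 0.221 in edgeR. In Kid, Gdf15 was 7.42, 11.4 and 8.30 TPM in GC_WT (mice 06, 07 and 10) and 2.99, 4.26 and 4.66 TPM in GC_KO (mice 02, 11 and 12), with -1.18 ± 0.33 and an adjusted p of 0.134 in edgeR. Without FL_KO mouse 11, which has no part in that contrast but in the shared spread, the adjusted p was 0.0156, and DESeq2 gave 0.0481, no filter 0.0134 and these 2 groups alone 0.0364. Atf4 in Kid was 96.8, 95.0 and 84.0 TPM in FL_WT (mice 05, 08 and 10) and 137, 141 and 117 TPM in FL_KO (mice 01, 02 and 11), with 0.51 ± 0.13 and an adjusted p of 0.0759 in edgeR. It passed in DESeq2 (adjusted p = 0.012), without a filter on low counts (0.0116) and without FL_KO mouse 11 (0.0175).

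**Figure D5:**
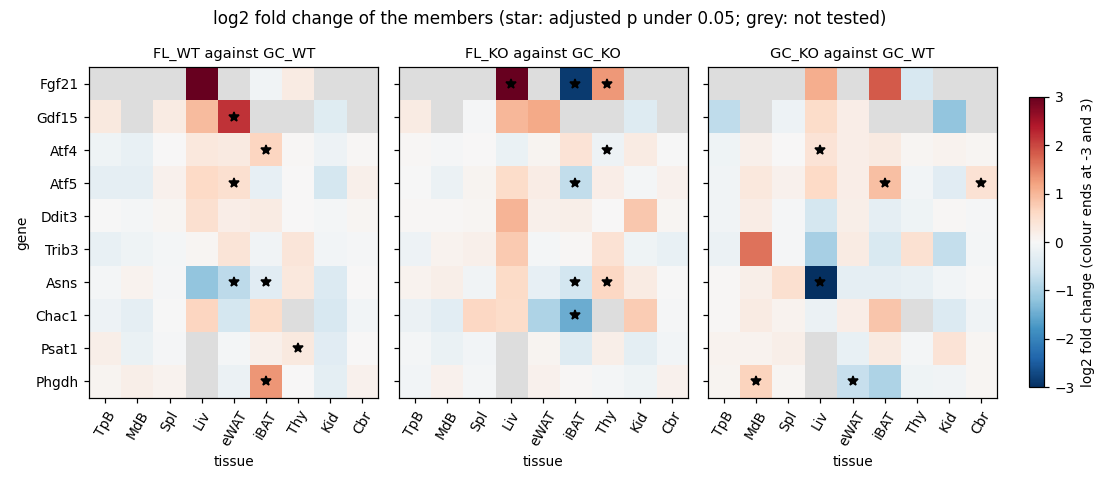
log2 fold change of each member (rows of the map) in each tissue (columns) for FL_WT against GC_WT, FL_KO against GC_KO and GC_KO against GC_WT, with the colour ending at -3 and 3, stars for an adjusted p under 0.05 in edgeR and grey for pairs that did not pass the filter. No star is drawn for Liv in the first panel, and Fgf21 in Liv is the highest value of the flight panels, at 4.56 in WT and 3.13 in Nrf2-KO mice.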

How the data were processed

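RNA of 192 samples from 9 tissues was sequenced by the authors as single reads from strand-specific Agilent SureSelect libraries, with poly(A) selection or, in Thy, rRNA depletion. Per the submitters' processing notes, bcl2fastq, STAR 2.6.1 and RSEM 1.3.1 were used with the mm10 genome. The deposited table holds RSEM expected counts per gene, which the authors had not normalized, and TPM, which the authors normalized to gene length and to an equal sum per sample. Its 192 FPKM columns were not used. Whether counting used strand is not given in the sources used here. Atf5, Ddit3 and Psat1 overlap genes on the opposite strand (571, 68 and 556 bases at most), and their values are uncertain to that extent.

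Expected counts were rounded, genes of low count were removed per tissue with edgeR's filterByExpr, and edgeR 4.0.16 (R 4.3.3, TMM scaling, quasi-likelihood F-test) was fitted per tissue to all 4 groups, with Benjamini-Hochberg adjustment over all genes tested and a threshold of 0.05. The SE was derived from the fold change and the quasi-likelihood F. The interaction tested whether the flight responses of the genotypes differed. Mice are the replicates, and flight mouse 04 was left out. The alternatives tried included limma 3.58.1 with pseudocounts of 1 and 0.1 on log2 TPM, DESeq2 1.42.0, RLE scaling, no filter, only the 2 groups compared, mouse 04 included, each mouse left out, and blocks. The procedure was tested on simulated data.

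Total expected counts were 13.0 to 16.3 M per poly(A) library and 8.01 to 10.6 M per Thy library, so that a gene at 1 TPM rests on few reads. The 10 genes and all lists were chosen with earlier results of these data known. Named were the 10 genes, at most 3 called genes with the smallest adjusted p from each list per tissue and contrast, marker lists as sums with their most abundant genes, and the 5 genes with the highest Pearson r with Fgf21 over 36 means of tissue and group, among genes with a mean of at least 5 TPM in one of them. Klb, Acot1 and Acadm in WT livers, Apoa4 and Serpina7 are described with values chosen after these had been seen. Of 54752 gene identifiers 53861 (98.4%) were found in the GENCODE vM21 annotation, a later release than that of the deposited table. Deviations from the group mean were correlated between flown and ground mice of 1 number. All 5 pairs exceeded 0.1 (0.22 to 0.37) in Nrf2-KO Liv, where the number was taken as a pairing, and not all pairs did in any other tissue and genotype examined. In only 1 of these 5 pairs were the mice each other's closest match. Whether the number itself or its range was shared was not tested. One gene that this rule would name is not reported here.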

Additional observations from a re-analysis of the deposited data

Results flagged for a closer look

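In each group of 5 or 6 mice, the highest or lowest TPM of a gene was compared with its nearest neighbour by Dixon's criterion. Of 240 groups looked at, 11 held such a mouse, 8 high and 3 low, and chance gives about 1 in 20 groups, or 12.

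Fgf21 stood out in 3 tissues. FL_KO mouse 02 had 21.49 TPM in Liv, with 10.42 TPM next. GC_WT mouse 10 had 1.57 TPM in iBAT, with 0.51 TPM next, and FL_KO mouse 09 had 6.28 TPM in Thy, with 4.06 TPM next. The calls of Fgf21 in Liv, Thy and iBAT of Nrf2-KO mice held without each of these mice.

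GC_WT mouse 08 was high in Liv for both Asns (12.03 TPM, next 3.67 TPM) and Atf5 (135.73 TPM, next 77.84 TPM). In iBAT, FL_WT mouse 06, one of the libraries rich in muscle RNA, had Chac1 at 4.18 TPM, with 1.62 TPM next. Gdf15 in Spl was 2.44 TPM in GC_KO mouse 01, with 1.12 TPM next, and Ddit3 in TpB was 54.01 TPM in FL_WT mouse 10, with 45.32 TPM next.

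The low values were Ddit3 in TpB of FL_KO mouse 09 (32.52 TPM, next 44.19 TPM), Atf4 in Thy of GC_KO mouse 04 (36.52 TPM, next 44.20 TPM) and Asns in Cbr of GC_KO mouse 09 (90.31 TPM, next 97.75 TPM).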

How the results depend on the processing

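Of 26 calls of a gene in a tissue and contrast, 10 were kept under every setting in which the gene was tested, 16 lost the call in at least 1, and 1 of these, Atf4 in Thy of FL_KO against GC_KO, reversed (0.106 and 0.108 in limma with a pseudocount of 1 and 0.1). The kept calls were tested in 28 to 33 settings, since genes of low level did not enter all of them. Kept were Fgf21 in Liv, iBAT and Thy (FL_KO against GC_KO), Asns in Liv, Phgdh in eWAT and Atf5 in iBAT (GC_KO against GC_WT), and Asns, Gdf15 and Atf5 in eWAT and Psat1 in Thy (FL_WT against GC_WT). The interaction of Ddit3 in Cbr, not called, was -0.013 with both Ddit3 records summed. Pairs higher in FL_WT than in GC_WT outside Liv numbered 5, and 3 without the libraries rich in muscle RNA, and the 2 lower ones became 1 there and 1 in limma with either pseudocount. In FL_KO against GC_KO the 3 higher pairs became 6 in limma with either pseudocount, 5 with mouse 04 and 7 with a block of the mouse number ranges, and the 5 lower ones became 0 in limma with either pseudocount (members at an unadjusted p under 0.05 in edgeR numbered 15), 3 without a filter and 3 with the 2 groups alone. In GC_KO against GC_WT the 4 higher pairs became 2 with the 2 groups alone, and the 2 lower ones became 4 in DESeq2 and 1 in limma with either pseudocount. In FL_KO against FL_WT the 2 higher pairs became 1 in limma with either pseudocount, 1 with mouse 04 and 1 with the 2 groups alone, and the 3 lower ones became 1 in limma with either pseudocount and 1 without the muscle-rich libraries. The 8 PPARalpha genes in Nrf2-KO Liv became 5 with the 2 groups alone. The cause of these moves was not tested. When each of 23 mice was left out, counts ranged from 3 to 5 higher and 2 to 2 lower (FL_WT against GC_WT), 2 to 4 and 3 to 5 (FL_KO against GC_KO), 3 to 4 and 2 to 3 (GC_KO against GC_WT), 0 to 2 and 1 to 3 (FL_KO against FL_WT), 0 for the interaction, and 6 to 7 and 6 to 8 PPARalpha genes in WT and Nrf2-KO Liv. The lowest counts came without GC_WT mouse 10 (3), without FL_KO mouse 12 or GC_KO mouse 11 (3 lower in FL_KO against GC_KO), and, for FL_KO against FL_WT, without FL_KO mouse 01 or FL_WT mouse 03 or 05 (0 higher) and without FL_KO mouse 02 or 12 or FL_WT mouse 05 (1 lower). A further 9 mice left 1 higher pair there. With the replicate block, that is, pairing by mouse number, the flight counts were 5 higher and 2 lower in WT and 3 higher and 6 lower in Nrf2-KO mice and 0 for the interaction. The block added Atf5 in Liv and Chac1 in eWAT (-0.84, adjusted p = 0.0484) and ended Asns in Thy (0.53, adjusted p = 0.0896). Blocks of mouse number ranges, the muscle settings and the summed Ddit3 records were chosen after seeing the data. Fgf21 and Gdf15 outside Liv rest on few counts, which limits detection. Fgf21 in Liv and iBAT, Gdf15 in eWAT and Asns in Liv passed the filter on low counts through mice in which they were high.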

Other observations

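Flight mouse 04, an Nrf2-KO animal with an intestinal hemorrhage that was left out of the comparisons and entered only as an alternative setting, had 14.9 TPM of Fgf21 and 20.5 TPM of Gdf15 in Liv, within the ranges of the other FL_KO livers. Its Liv values were 66.0 TPM for Atf4, 103 TPM for Atf5, 8.44 TPM for Ddit3, 0.11 TPM for Asns and 6.93 TPM for Chac1. Atf4 was below and Chac1 above the other FL_KO livers. Fgf21 was 3.32 TPM in its Thy and 0.94 TPM in its iBAT.

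Atf5 in Liv, like Chac1, followed the mouse numbers, in the opposite direction. Its mean was 60.9 TPM in mice 01 to 06 and 93.1 TPM in mice 07 to 12 of GC_WT. The same means were 89.4 and 154 TPM in FL_WT, 88.7 and 141 TPM in GC_KO and 105 and 243 TPM in FL_KO. In GC_WT the ranges overlapped, at 51.4 to 70.0 TPM in mice 01 to 06 and 65.6 to 136 TPM in mice 07 to 12, the highest in mouse 08. The labels give no meaning to the numbers, which entered the comparisons only as blocks in alternative fits.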
